A study of Rattus norvegicus with 15 samples.

Results

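Macrophages patrol the prostate stroma and, in inflamed tissue, are joined by monocytes that arrive from the blood. Their identity depends on the CSF1 receptor, which transmits survival signals from CSF1 and IL-34. They sense bacterial products through CD14 and Toll-like receptor 4, take up debris through scavenger receptors and signal through small membrane adaptors that carry immunoreceptor tyrosine-based activation motifs (ITAMs).

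Transcripts of 10 macrophage surface and signalling markers were followed in rat prostate: Csf1r, Cd68, Cd14, Mrc1, Cd163, Aif1, Adgre1, Gpnmb, Tyrobp and Fcer1g. They were taken by gene identifier as a named set, not by their values, from 22436 genes, and all 10 passed the filter for testing, as did 12490 genes in all. The tissue came from SD (Sprague-Dawley) rats in 3 groups of 5 RNA-seq libraries. LIPUS rats were, per the series' design text, rats with modelled chronic prostatitis and pelvic pain that received low-intensity pulsed ultrasound, a physical treatment with short bursts of sound, for 4 weeks. Sample titles name an intensity of 1.0 W/cm2, whereas the treatment field names 1.5 W/cm2. Model rats had the prostatitis model without ultrasound, and Control rats were untreated. How the model was induced, and the age of the rats, are not given in the sources used here. Libraries are called by group and label number, 6 to 10 in each. Whether each library is a different rat is not stated, and the spread behind every p-value may therefore be partly technical.

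Libraries held 29675962 to 36402094 reads, and a gene of 2 kb with 0 reads could still be present at up to 0.0412 to 0.0505 FPKM (3 reads, counting error only). FPKM are fragments per kilobase of transcript, scaled to library size. Mitochondrially encoded transcripts took 43.0% to 83.3% of reads in LIPUS, 23.5% to 43.5% in Model and 3.75% to 4.69% in Control. Secretory transcripts of the ventral lobe took 0.269% to 9.63% of reads in LIPUS, 0.0199% to 5.16% in Model and 10.7% to 17.6% in Control. Prostate epithelial markers were present throughout, with Krt8, Krt18 and others summing to 186 to 599.6 FPKM in LIPUS, 511 to 952 FPKM in Model and 635 to 852 FPKM in Control. As deposited, the median tested gene stood at a log2 change of -0.60 for LIPUS against Model, -0.90 for Model against Control and -1.48 for LIPUS against Control. Each test below is given as deposited and on median-of-ratios scaled values, where those medians were -0.02, -0.15 and -0.15. The factors by which values were divided were 0.309 in LIPUS 10 and 0.641 to 1.13 in the other LIPUS libraries. They were 0.912 to 1.16 in Model and 1.68 to 1.84 in Control. Scaling therefore raised LIPUS 10 most, and it held the highest scaled value of every marker except Cd68 and Gpnmb. The part of the mitochondrial share and of lobe composition in the marker results was not tested. In bulk tissue, a change in the number of macrophages and a change in the RNA of each macrophage cannot be told apart.

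Promoter sequences, from 250 bases before to 50 bases after the start site, were found for 7 of the 10 genes in RefSeq (build GRCr8). Shown here are Gpnmb (chr4:79340878-79341177, plus strand), Cd68 (chr10:54882392-54882691, minus strand) and Cd14 (chr18:28611109-28611408, minus strand). Gpnmb and Cd68 are shown because their 3 highest deposited values came from the same libraries, and Cd14 because it was the most abundant of the 10 in Control. Capitals mark matches to GAGGAA, a core recognised by the myeloid factor PU.1, and to the M-box TCATGTG, which factors of the MITF family bind. Both strands were searched and no capital stretches overlap.
Gpnmb: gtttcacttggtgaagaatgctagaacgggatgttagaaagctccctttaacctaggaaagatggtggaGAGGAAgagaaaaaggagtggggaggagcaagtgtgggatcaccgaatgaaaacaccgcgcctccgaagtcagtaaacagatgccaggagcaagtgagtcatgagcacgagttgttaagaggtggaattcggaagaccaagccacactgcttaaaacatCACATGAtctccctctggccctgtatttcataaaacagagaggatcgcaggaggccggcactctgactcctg
Cd68: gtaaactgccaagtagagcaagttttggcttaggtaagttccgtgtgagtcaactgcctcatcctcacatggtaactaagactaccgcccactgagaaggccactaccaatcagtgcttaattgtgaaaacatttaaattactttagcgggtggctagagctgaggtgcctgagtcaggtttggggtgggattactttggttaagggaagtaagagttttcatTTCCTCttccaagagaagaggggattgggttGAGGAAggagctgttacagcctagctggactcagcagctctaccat
Cd14: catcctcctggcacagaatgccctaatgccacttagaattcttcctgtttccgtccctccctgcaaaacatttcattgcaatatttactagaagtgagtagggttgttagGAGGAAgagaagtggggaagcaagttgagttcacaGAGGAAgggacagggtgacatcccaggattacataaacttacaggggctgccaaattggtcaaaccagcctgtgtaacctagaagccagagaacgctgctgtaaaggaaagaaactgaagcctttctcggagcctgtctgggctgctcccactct

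GAGGAA was present in the windows of 6 of the 7 genes, all but Cd163, and in 27.6% of the 33469 promoters of that length. The Cd68 and Cd14 windows each held 2 copies. TCATGTG was present in 1 of the 7, that of Gpnmb, on the other strand from base -22, and in 3.56% of all promoters. CACGTG, an E-box, was in none of the 7 windows and in 6.42% of all promoters. These matches describe letters in a window and are not evidence of binding.

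The growth factor receptor gene Csf1r was depleted in Model and was higher in LIPUS. Its FPKM were 2.44, 1.56, 4.32, 3.42 and 4.53 in LIPUS 6 to 10, 1.52, 1.06, 0.831, 0.102 and 1.32 in Model 6 to 10, and 3.12, 5.39, 5.67, 4.27 and 4.93 in Control 6 to 10. Every Model library lay below every LIPUS and every Control library as deposited, although LIPUS 7 stood only just above Model 6, and the value of Model 9 rested on 14 reads. On scaled values LIPUS 7 (1.39) fell below Model 6 (1.56), and Model still lay below Control with no overlap. The LIPUS against Model log2 change was 1.85 (SE 0.49, limma adjusted p = 0.0293; scaled 2.50, adjusted p = 0.0297). For Model against Control it was -2.42 (SE 0.49, limma adjusted p = 0.000856; scaled -1.67, adjusted p = 0.0339). With 1 library left out, that deposited call held in all 15 fits and the scaled call in 9 (highest limma adjusted p = 0.0811). The scaled call was lost without Model 9, among others, and quantile normalization gave no call (limma adjusted p = 0.0681). LIPUS against Control gave -0.58 as deposited (limma adjusted p = 0.279) and 0.83 scaled (adjusted p = 0.318), so the sign of that difference depended on the scale.

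Cd14, whose product hands lipopolysaccharide to Toll-like receptor 4, was the most abundant of the 10 in Control and the clearest loss in Model. It stood at 7.79, 14.96, 8.31, 17.0 and 11.03 FPKM in LIPUS, at 10.8, 11.3, 5.67, 6.90 and 9.36 FPKM in Model, and at 35.4, 25.4, 36.5, 40.2 and 32.1 FPKM in Control. As deposited, all 10 LIPUS and Model libraries lay below all 5 Control libraries, and LIPUS overlapped Model. Scaled, LIPUS overlapped Control and lay above Model, and Model stayed below Control. Model against Control gave a log2 change of -1.96 (SE 0.29, limma adjusted p = 6e-05; scaled -1.19, adjusted p = 0.00518). The deposited LIPUS against Control change was -1.56 (limma adjusted p = 0.00026), but it was -0.14 on scaled values (adjusted p = 0.766). In LIPUS against Model, Cd14 missed the threshold at 0.40 (limma adjusted p = 0.309; scaled 1.05, adjusted p = 0.0515).

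Among endocytic receptors, Mrc1 encodes the mannose receptor CD206 and Cd163 the receptor for haemoglobin bound to haptoglobin. Mrc1 FPKM were 2.40, 1.86, 1.80, 3.02 and 3.04 in LIPUS, 1.67, 0.529, 1.12, 0.969 and 1.19 in Model, and 2.30, 3.78, 3.43, 2.82 and 2.61 in Control. As deposited, Model again lay below both other groups with no overlap, and Model 7 was lowest. On scaled values Model overlapped both other groups. Mrc1 rose in LIPUS against Model by 1.12 on the log2 scale (SE 0.32, limma adjusted p = 0.0342; scaled 1.75, adjusted p = 0.0309). With 1 library left out, the deposited call held in 7 of 15 fits (highest limma adjusted p = 0.0843). The scaled call held in 10 (highest limma adjusted p = 0.0729). Mrc1 was lower in Model than in Control as deposited (-1.42, limma adjusted p = 0.00186), a call that was lost after scaling (-0.67, adjusted p = 0.217). Cd163, the lowest of the 10 by mean level in each group, was at 1.39, 0.582, 1.37, 0.608 and 0.774 FPKM in LIPUS, 0.772, 0.201, 0.617, 0.353 and 0.534 FPKM in Model, and 1.11, 1.85, 0.899, 1.22 and 1.28 FPKM in Control. LIPUS spanned both other groups, while each Model library lay below each Control library as deposited but not on scaled values. The Model against Control change of Cd163 was -1.26 (limma adjusted p = 0.0113) and was also lost after scaling (-0.55, adjusted p = 0.34). LIPUS against Model gave 0.82 (limma adjusted p = 0.119; scaled 1.42, adjusted p = 0.0649).

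**Figure D1:**
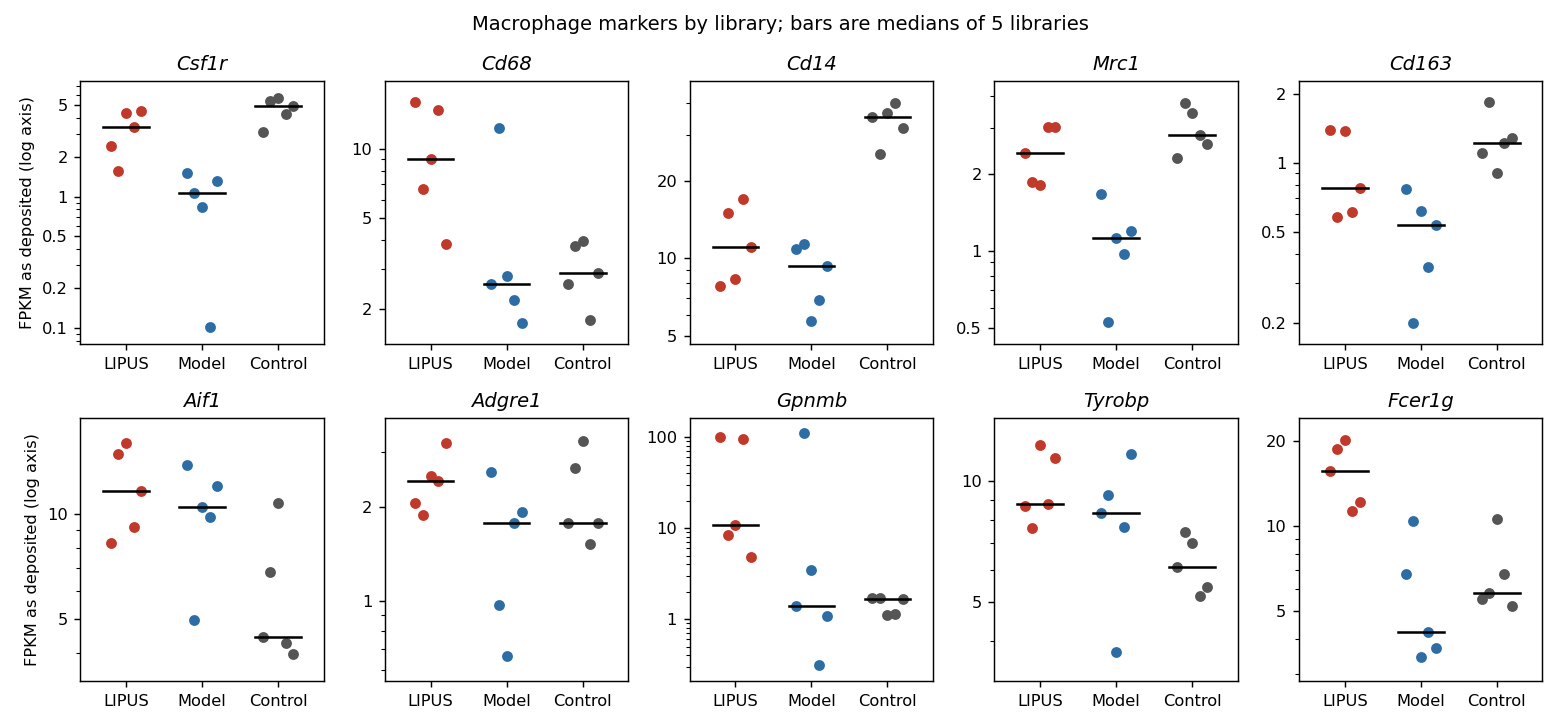
FPKM as deposited (log axis) of the 10 markers in each of 5 LIPUS, 5 Model and 5 Control libraries, with bars at group medians. Csf1r and Mrc1 are lowest in Model, Cd14 is highest in Control, Fcer1g is highest in LIPUS, and Gpnmb has 3 libraries between 96.7 and 111 FPKM.

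Fcer1g, the Fc receptor gamma chain through which several activating receptors signal, gave the clearest rise in LIPUS. It was at 15.7, 18.8, 20.2, 11.3 and 12.2 FPKM in LIPUS, at 6.78, 10.5, 3.43, 4.21 and 3.71 FPKM in Model, and at 5.51, 5.79, 10.6, 6.77 and 5.22 FPKM in Control. Every LIPUS library exceeded every library of the other two groups, and the narrowest gap was between LIPUS 9 and Control 8. The log2 change in LIPUS against Model was 1.53 (SE 0.33, limma adjusted p = 0.0252) and 2.18 on scaled values (adjusted p = 0.00357). LIPUS against Control gave 1.21 (limma adjusted p = 0.00428; scaled 2.63, adjusted p = 4.14e-05). Model against Control did not pass, at -0.32 as deposited and 0.44 scaled (limma adjusted p = 0.443 and 0.274). The gamma chain also serves mast cells, whose marker transcripts summed to 10.7 to 42.6 FPKM in LIPUS, 4.92 to 33.8 FPKM in Model and 33.3 to 59.0 FPKM in Control, and Mcpt2 was the only one of the 10 at 0 in every Model library. Much of that sum was Gata2, a transcription factor gene of mast cells and of other cell types, at means of 11.2 FPKM in LIPUS, 16.2 FPKM in Model and 24.8 FPKM in Control. Scaled, the mast cell sums were 18.8 to 60.2 in LIPUS, 4.23 to 34.7 in Model and 19.4 to 32.2 in Control. Of 7 tested mast cell genes, 1 rose in LIPUS against Model and 0 fell, on both scales. It was Cpa3, the mast cell carboxypeptidase gene, at means of 3.85 FPKM in LIPUS and 0.511 FPKM in Model (2.41, limma adjusted p = 0.0184; scaled 3.04, adjusted p = 0.00265). In LIPUS against Control, where Fcer1g was higher, Cpa3 was lower as deposited (-1.51, limma adjusted p = 0.00432) and at -0.11 scaled (adjusted p = 0.849). The part of mast cells in the Fcer1g result was not tested.

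Tyrobp encodes DAP12, the other ITAM adaptor, which pairs with receptors such as TREM2. Its FPKM were 8.67, 7.67, 12.4, 8.76 and 11.4 in LIPUS, 8.34, 9.23, 3.74, 7.70 and 11.7 in Model, and 6.10, 7.46, 7.00, 5.17 and 5.45 in Control. LIPUS lay just above Control with no overlap, whereas Model spanned both. No comparison of Tyrobp passed as deposited (limma adjusted p = 0.419 for LIPUS against Model, 0.416 for Model against Control and 0.0615 for LIPUS against Control). On scaled values it was higher than Control in LIPUS (2.05, limma adjusted p = 0.000774) and in Model (1.07, adjusted p = 0.0295). The ratio of Fcer1g to Tyrobp within a library, which no library scaling can alter, was 1.07 to 2.45 in LIPUS (median 1.64), 0.317 to 1.14 in Model (median 0.813) and 0.775 to 1.51 in Control (median 0.959). In LIPUS the ratio lay higher than in Model and Control, with some overlap.

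Aif1, which encodes the actin-binding protein IBA1, was the second most abundant marker in Model by mean level. It was measured at 8.25, 14.9, 16.1, 9.21 and 11.7 FPKM in LIPUS, 13.8, 4.98, 10.5, 9.80 and 12.1 FPKM in Model, and 4.44, 6.81, 10.8, 4.26 and 3.95 FPKM in Control. LIPUS and Model were similar in range and most of their libraries lay above most Control libraries, with Control 8 and Model 7 as the crossing values. Aif1 was higher in LIPUS than in Control (1.04, SE 0.35, limma adjusted p = 0.0128; scaled 2.45, adjusted p = 0.000307). Against Control, Model passed on scaled values only (0.78, limma adjusted p = 0.0731; scaled 1.54, adjusted p = 0.00496). Adgre1, the gene of the F4/80 adhesion receptor, ranged over 1.89 to 3.22 FPKM in LIPUS, 0.663 to 2.598 FPKM in Model and 1.51 to 3.25 FPKM in Control, and the groups overlapped. Its single call was LIPUS against Control on scaled values (1.54, limma adjusted p = 0.0177; 0.17 as deposited, adjusted p = 0.671).

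Cd68 and Gpnmb, both lysosomal and endosomal glycoproteins of phagocytes, had their 3 highest deposited values in the same libraries. Those libraries stood far above the rest for Gpnmb only. Gpnmb, which is also made by melanocytes and osteoclasts, was at 100.3, 8.41, 10.8, 96.7 and 4.81 FPKM in LIPUS, 1.39, 111, 3.46, 0.312 and 1.08 FPKM in Model, and 1.71, 1.72, 1.101, 1.13 and 1.67 FPKM in Control. LIPUS 6, LIPUS 9 and Model 7 lay at 96.7 FPKM or more and all other libraries at 10.8 FPKM or less, and the lowest LIPUS library still exceeded every Control library and 4 of 5 Model libraries. The log2 change was 3.80 for LIPUS against Control (SE 1.16, limma adjusted p = 0.00793; scaled 5.16, adjusted p = 0.00519). It was 2.78 for LIPUS against Model (SE 1.16, limma adjusted p = 0.0941; scaled 3.44, adjusted p = 0.0941) and 1.01 for Model against Control (adjusted p = 0.491). Without Model 7 the LIPUS against Model change of Gpnmb became 4.08 and passed (limma adjusted p = 0.00261; scaled 4.68, adjusted p = 0.00141), and the Model against Control change became -0.28 (adjusted p = 0.785).

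Cd68 stood at 16.1, 6.65, 9.07, 14.8 and 3.85 FPKM in LIPUS, at 2.58, 12.3, 2.78, 2.20 and 1.74 FPKM in Model, and at 2.56, 3.78, 3.96, 1.79 and 2.88 FPKM in Control. The same 3 libraries were its 3 highest as deposited, and apart from Model 7 the Model values lay within or just below the Control range. Scaled, Cd68 in Model 7 was at 10.6, below LIPUS 8 at 12.8 and LIPUS 10 at 12.4. LIPUS against Control gave 1.59 (SE 0.49, limma adjusted p = 0.00843; scaled 2.99, adjusted p = 0.000326). LIPUS against Model gave 1.44 as deposited (limma adjusted p = 0.0553) and passed after scaling (2.08, adjusted p = 0.025). As deposited, Cd68 passed without Model 7 (1.91, limma adjusted p = 0.0032), LIPUS 7 or LIPUS 10, and the scaled call was lost without LIPUS 6, LIPUS 10, Model 8, Model 9 or Model 10 (highest adjusted p = 0.0708). In Model 7 ventral-lobe transcripts took 5.16% of reads and dorsolateral transcripts 0.0238%, against 0.0199% to 1.35% and 6.86% to 12.9% in the other Model libraries. Its mitochondrial share was 43.5%, beside 64.2% in LIPUS 6 and 48.3% in LIPUS 9. The part of this make-up in the Gpnmb and Cd68 values was not tested. Schwann cell and melanocyte markers are another possible origin of Gpnmb transcript. They summed to 6.07 to 20.9 FPKM in LIPUS, 3.47 to 10.0 FPKM in Model and 23.7 to 42.2 FPKM in Control. Single genes of that list went both ways. The melanocyte gene Dct was at 0 in every LIPUS and Model library. Mlana was at 0 in every Control library, but not throughout LIPUS or Model. The part of these cells in the Gpnmb values was not tested.

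Over 9559 candidate genes, those whose scaled pattern was closest to Gpnmb across the 15 libraries were Lilrb4 (root mean square distance 0.97 on the log2 scale), Pla2g7 (1.44), Lyz2 (1.51), Igsf7 (1.54) and Cd68 (1.57), against a spread of 2.85 for Gpnmb itself. Lyz2, the macrophage lysozyme gene, showed the pattern at high level, with 206, 79.5, 110.3, 295 and 47.2 FPKM in LIPUS, 31.0, 262, 32.4, 23.7 and 29.0 FPKM in Model, and 51.4, 50.7, 86.4, 40.4 and 39.1 FPKM in Control. Its 3 highest libraries were again LIPUS 9, Model 7 and LIPUS 6. C1qa, the complement subunit made by resident macrophages, did not share it: Model 7 was at 9.95 FPKM, the lowest of the series, against 22.8 to 39.8 FPKM in the other Model libraries. The genes nearest to Csf1r were Bgn (distance 0.61), Nbl1, Scpep1, F13a1 and S100b. Those nearest to Tyrobp were Gas5 (0.43), Tmsb10, Tstd3, Tmsb4x and Fmo2.

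**Figure D2:**
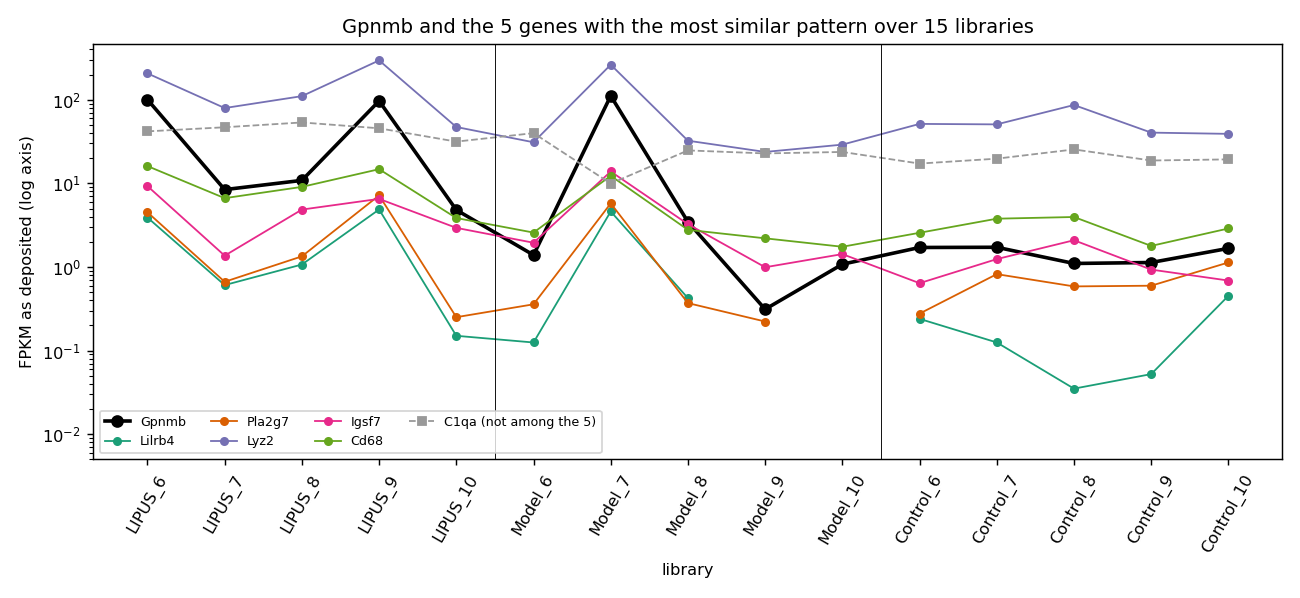
FPKM as deposited (log axis) of Gpnmb, the 5 genes with the closest pattern and C1qa in the 15 libraries, with vertical lines between groups and no point where a gene was listed at 0. LIPUS 6, LIPUS 9 and Model 7 stand out for Gpnmb and its neighbours, while C1qa is lowest in Model 7.

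Counted together for LIPUS against Model, 3 of the 10 markers rose and 0 fell as deposited (Csf1r, Mrc1 and Fcer1g), where 1.31% of all tested genes rose and 13.3% fell. The groups did not overlap for these same 3, beside 0.536% of all genes that did so upward and 4.22% downward. On scaled values 4 rose, with Cd68 added, where 2.73% of genes did and 1.49% fell. Scaled, Cd14 and Fcer1g did not overlap and were higher, and 0 were lower, beside 1.63% and 1.29% of genes. The median change of the 10 was 0.97, against -0.60 over all tested genes (scaled 1.59 against -0.02), and all 10 lay above the median gene. The calls rested on a spread pooled over the 3 groups: fitted on LIPUS and Model alone, limma called 0 of the 10 as deposited, with 5 at an unadjusted p under 0.05. In that fit 3061 of all 12490 tested genes were at an unadjusted p under 0.05. Leaving out LIPUS 6, Model 8, Model 9 or Model 10 also left 0 calls as deposited, and calls over all genes were then 8 to 23. Leaving out Model 7 gave 5, while calls over all genes went from 1820 to 4040 (548 higher). With Model 7, LIPUS 6 and LIPUS 9 all left out, the count was 4, beside 3138 over all genes (413 higher). Scaled, Fcer1g passed without any single library. The 4 calls became 1 without LIPUS 10, Model 8, Model 9 or Model 10, where 115 to 184 of all genes passed. They became 2 without LIPUS 6 (273 over all genes), 7 without Model 7 (4001, 1884 higher) and 8 without LIPUS 7 (826, 499 higher). With every library kept, 527 of all genes passed, 341 of them higher.

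For Model against Control, 0 markers rose and 4 fell as deposited (Csf1r, Cd14, Mrc1 and Cd163), where 2.95% of all genes rose and 43.1% fell. The same 4 did not overlap between groups, beside 41.4% of all genes (3.16% upward), so the count was close to the background. Scaled, Csf1r and Cd14 did not overlap and were lower, beside 18.3% (14.1% higher). Scaled, 2 rose (Aif1 and Tyrobp, background 15.3%) and 2 fell (Csf1r and Cd14, background 20.2%). The scaled count was 2 in place of 4 without Model 9, Control 9 or Control 10. The median change was -0.43 against -0.90 over all genes (scaled 0.32 against -0.15), and 6 of the 10 lay above the median gene. The Model libraries are shared by this step and by LIPUS against Model, so the low Model values of Csf1r and Mrc1 enter both. Compared with Control, LIPUS had 4 markers higher (Cd68, Aif1, Gpnmb and Fcer1g, background 0.953%) and 1 lower (Cd14, background 74.4%). As deposited, Gpnmb, Tyrobp and Fcer1g did not overlap and were higher, and Cd14 lower, beside 0.416% and 59.4% of genes. Scaled, Cd68, Aif1, Gpnmb, Tyrobp and Fcer1g did not overlap and were higher, beside 11.2% (15.3% lower). Scaled, 6 were higher (background 11.6%), those 4 with Adgre1 and Tyrobp, and 0 lower (background 14.3%). The median change was 0.40 against -1.48 over all genes, and 1.79 against -0.15 scaled.

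**Figure D3:**
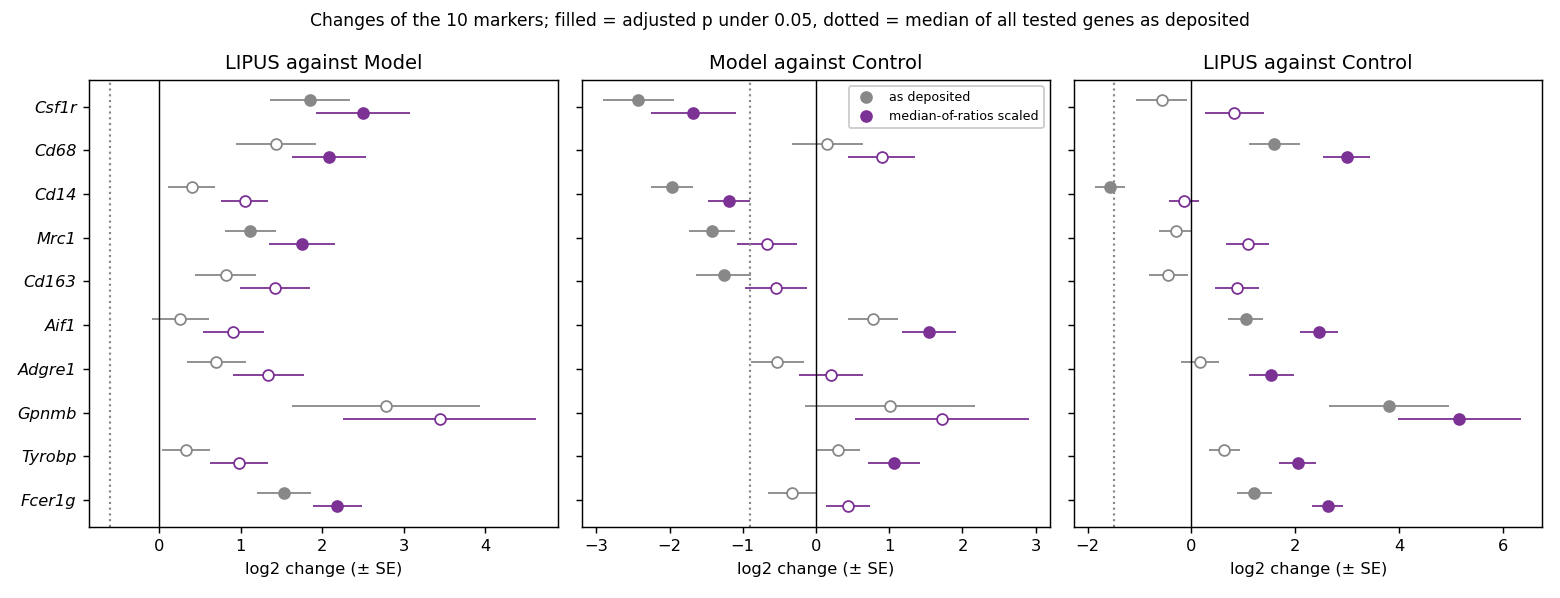
Log2 changes with standard errors (horizontal axis) of the 10 markers in 3 comparisons, as deposited in grey and median-of-ratios scaled in purple. Filled points have a limma adjusted p under 0.05 and the dotted line is the median of all tested genes as deposited, at -0.60, -0.90 and -1.48. All 10 markers lie right of that line in LIPUS against Model.

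Ratios of markers within a library are free of library scaling. Aif1 to Csf1r ranged from 2.58 to 9.504 in LIPUS, from 4.70 to 96.2 in Model and from 0.802 to 1.90 in Control, so neither LIPUS nor Model overlapped Control. Tyrobp to Csf1r likewise spanned 2.52 to 4.90 in LIPUS, 4.501 to 75.6 in Model and 1.11 to 1.95 in Control. Ratios of Cd68, Fcer1g, Adgre1 and Gpnmb to Csf1r also lay above Control without overlap in both groups. The gap was narrow for Adgre1 (0.581 or more in LIPUS, up to 0.573 in Control) and Cd68 (0.848 or more, up to 0.822). Those of Mrc1, Cd163 and Cd14 overlapped Control. Among all genes the ratio to Csf1r was higher without overlap for 36.4% in Model against Control and for 0.729% in LIPUS against Control. The limma test of the Aif1 and Tyrobp ratios did not pass for LIPUS against Control (Aif1 1.62, adjusted p = 0.134; Tyrobp 1.21, adjusted p = 0.257). For Aif1 and Tyrobp the highest of the Model ratios came from Model 9 with its 14 Csf1r reads. Relative to Csf1r, 6 of the other 9 markers were higher in Model than in Control: Aif1 by 3.205 (limma adjusted p = 0.000496), Gpnmb by 3.44 (0.00195), Tyrobp by 2.73 (0.00224), Cd68 by 2.58 (0.00521), Fcer1g by 2.10 (0.0149) and Adgre1 by 1.89 (0.0314). Of all genes 41.2% were higher and 1.44% lower by the same measure, and Csf1r itself fell. Relative to Cd68 the count was 1 of 8 markers, Cd14, which was lower. The share of all genes called relative to Cd68 was not counted. In LIPUS against Model 3 were lower relative to Csf1r, Aif1 (-1.59, limma adjusted p = 0.0317), Tyrobp (-1.52, 0.0372) and Cd14 (-1.45, 0.045), where 87% of genes were. By that measure 0 markers were higher, beside 0.0721% of genes. The count of 3 was 0 without LIPUS 6, LIPUS 8, LIPUS 9 or Model 9, and 1 without any single one of Control 7 to 10. Against Control, LIPUS had Gpnmb (4.37, limma adjusted p = 0.000401) and Cd68 (2.17, 0.0491) higher relative to Csf1r, beside 0.416% of genes, and 0 lower, beside 7.89%. The Cd68 call was lost without any one of 10 of the 15 libraries, and without Model 9 the count was 4.

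Cd14 to Tyrobp was 0.673 to 1.95 in LIPUS, 0.801 to 1.52 in Model and 3.40 to 7.77 in Control. In Control Cd14 made up 39.3% to 58.1% of the summed FPKM of the 10 markers, and in LIPUS 4.72% to 19.4%. Gpnmb made up 7.22% to 60.8% of that sum in LIPUS, 0.909% to 68.5% in Model and 1.32% to 2.70% in Control. Between markers, the closest patterns over the 15 libraries were those of Mrc1 and Cd163 (distance 0.46) and of Adgre1 and Tyrobp (0.48).

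**Figure D4:**
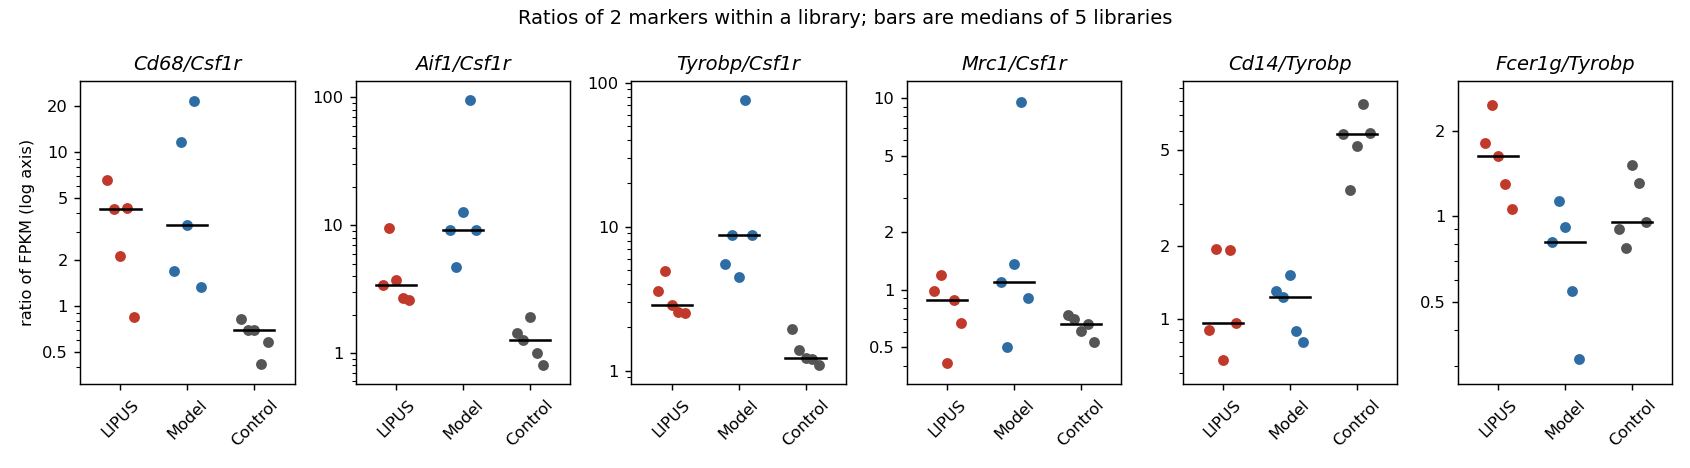
Ratios of the FPKM of 2 markers within each library (log axis), 5 libraries a group, with bars at medians. Cd68, Aif1 and Tyrobp relative to Csf1r are lowest in Control, and Cd14 relative to Tyrobp is highest in Control, at 3.40 to 7.77.

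Other macrophage genes gave the setting of these changes. Their counts stand beside these shares of all tested genes as deposited: 1.31% higher and 13.3% lower in LIPUS against Model, 2.95% and 43.1% in Model against Control, and 0.953% and 74.4% in LIPUS against Control. The scaled shares were 2.73% higher and 1.49% lower, 15.3% and 20.2%, and 11.6% and 14.3% in the same order. As for the markers, list calls in LIPUS against Model rest on the pooled spread: with those groups fitted alone, limma called 3 of all 12490 genes. Of 14 tested genes in a macrophage list that includes 7 of the 10 markers, 6 rose in LIPUS against Model and 0 fell (scaled 7 and 0). Besides Csf1r and Mrc1 these were the complement genes C1qa, C1qb and C1qc and the pore-forming gene Mpeg1. C1qc averaged 26.7 FPKM in LIPUS and 13.6 FPKM in Model (log2 change 0.98, limma adjusted p = 0.0299; scaled 1.64, adjusted p = 0.0184). Mpeg1 averaged 8.14 FPKM in LIPUS and 2.39 FPKM in Model (1.75, limma adjusted p = 0.0258; scaled 2.40, adjusted p = 0.00471). From the 14, 0 rose and 5 fell in Model against Control (scaled 2 and 3), and in LIPUS against Control 5 rose and 2 fell (scaled 9 and 1), with C1qa at 43.8 FPKM in LIPUS and 20.1 FPKM in Control (1.11, limma adjusted p = 0.00448). The scaled median change of the list was 1.63 in LIPUS against Model, 0.34 in Model against Control and 1.97 in LIPUS against Control, where all tested genes had -0.02, -0.15 and -0.15. The summed level of all 15 listed genes was 171 to 464 FPKM in LIPUS, 93.1 to 325 FPKM in Model and 138 to 221 FPKM in Control. Scaled, that sum was 197 to 695 in LIPUS, 99.7 to 279 in Model and 80.2 to 120 in Control.

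Of 13 tested scavenger and clearance receptor genes, 4 rose in LIPUS against Model and 0 fell, on both scales: the lectin genes Clec10a and Colec12, the folate receptor gene Folr2 and the clotting factor gene F13a1. Folr2 averaged 5.29 FPKM in LIPUS and 1.82 FPKM in Model (2.33, limma adjusted p = 0.0284). In Model against Control 10 of the 13 fell and 0 rose, beside 43.1% of all genes lower (scaled 4 fell and 0 rose, beside 20.2% lower), among them the receptors for dying cells Mertk (0.142 FPKM in Model and 1.73 FPKM in Control; -3.07, limma adjusted p = 0.000146) and Axl (-2.91, 5.22e-06). In LIPUS against Control 7 fell and 1 rose (scaled 2 lower and 4 higher), and Mertk and Axl were still lower, at 0.104 FPKM in LIPUS for Mertk (-3.33, limma adjusted p = 5.09e-05). The scaled medians were 1.36, -0.87 and 0.26 in the 3 comparisons. The macrophage survival factor Csf1 was lower in Model than in Control (0.723 FPKM in Model and 3.07 FPKM in Control; -2.002, limma adjusted p = 0.000381; scaled -1.25, adjusted p = 0.0146).

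Among 13 tested growth factors and lineage regulators, 0 changed in LIPUS against Model by limma on either scale. In Model against Control 5 fell (scaled 1 higher and 2 lower, Csf1 and the transcription factor gene Cebpa passing on both), and in LIPUS against Control 7 fell (scaled 4 higher and 0 lower). The 5 and 7 of 13 were smaller shares than the 43.1% and 74.4% of all genes that were lower, and the scaled medians were 0.42, -0.0087 and 0.52. Of 17 tested ITAM receptors and kinases, 1 rose in LIPUS against Model, the inhibitory Fc receptor gene Fcgr2b (scaled 2). In Model against Control 5 fell (scaled 2 higher and 2 lower), with the kinase genes Syk and Lyn lower on both scales. LIPUS exceeded Control in 3 and was lower in 6 (scaled 8 and 0), and the scaled medians were 1.06, 0.21 and 0.62. The 3 were Fcgr1a, a high-affinity IgG receptor gene, Trem2, a lipid-sensing receptor gene that uses DAP12, and Lilrb4. Trem2 averaged 3.27 FPKM in LIPUS and 0.985 FPKM in Control (1.71, limma adjusted p = 0.00782; scaled 2.997, adjusted p = 0.000802).

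In the CD14 and Toll-like receptor 4 list, 13 genes were tested. The LIPUS against Model step had 1 higher and 1 lower (scaled 3 and 0), Ly86 being higher on both scales. The Model against Control step had 8 lower and 0 higher, beside 43.1% of all genes lower (scaled 2 lower, beside 20.2%). Tlr4 itself averaged 0.227 FPKM in Model and 1.57 FPKM in Control (-2.45, limma adjusted p = 0.000222; scaled -1.75, adjusted p = 0.000779). In LIPUS against Control 10 of the 13 fell and 0 rose (scaled 1 and 1), a share close to the 74.4% of all genes that were lower. The scaled medians were 0.091, -0.32 and 0.14. Of 17 tested lipid-associated macrophage genes 0 changed as deposited in LIPUS against Model (scaled 1 higher), 5 fell in Model against Control (scaled 3 higher and 4 lower), and in LIPUS against Control 1 rose, Trem2, and 7 fell (scaled 7 and 1), with scaled medians of 0.77, 0.23 and 0.89. Of 10 tested monocyte genes, 1 rose in LIPUS against Model, the integrin gene Itgam (scaled 2), and 7 fell in Model against Control (scaled 1 higher and 2 lower). Plac8 was higher in LIPUS than in Control (39.9 FPKM in LIPUS and 13.1 FPKM in Control; 1.78, limma adjusted p = 0.00595), as 1 of 10, with 4 lower (scaled 2 and 1), and the scaled medians were 1.17, -0.81 and 0.39. Of 18 polarization genes, 16 were found by name and 8 passed the filter for testing, with scaled medians of 0.80, -0.52 and 0.44. By limma 0 of them changed in LIPUS against Model and 1 fell in each comparison with Control (scaled 0 in all 3), and Il6 and Ccl17 had no read in any LIPUS or Model library.

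Beside the mast cell sums given above, other leukocyte lists were summed. Neutrophil markers summed to 0.792 to 5.62 FPKM in LIPUS, 0.405 to 5.16 FPKM in Model and 0.835 to 2.82 FPKM in Control (scaled 1.12 to 6.77, 0.445 to 5.52 and 0.488 to 1.66). Elane and Mmp8 were at 0 in every LIPUS and Model library, and Camp was at 0 in every Control library. The 1 tested gene of that list was higher in LIPUS than in Control on scaled values only (2.63, beside 11.6% of all genes higher). Markers of NK cells summed to 0.124 to 6.82 FPKM in LIPUS, 0.0393 to 2.44 FPKM in Model and 2.49 to 4.61 FPKM in Control. The T lymphocyte list summed to 8.17 to 14.9 FPKM in LIPUS, 3.53 to 15.03 FPKM in Model and 6.00 to 11.2 FPKM in Control, and B lymphocyte and plasma cell markers summed to 1.79 to 4.90 FPKM in LIPUS, 0.389 to 6.48 FPKM in Model and 8.62 to 17.9 FPKM in Control. Dendritic cell markers summed to 1.88 to 2.42 FPKM in LIPUS, 2.34 to 5.02 FPKM in Model and 3.51 to 3.89 FPKM in Control. The order of the groups in these sums depended on the scale. Scaled dendritic sums were 2.15 to 7.10 in LIPUS, 2.01 to 5.15 in Model and 2.06 to 2.23 in Control. In the same group order, scaled T lymphocyte sums were 12.8 to 26.5, 3.04 to 14.2 and 3.58 to 6.10. Scaled B lymphocyte and plasma cell sums were 2.53 to 14.3, 0.334 to 6.12 and 5.14 to 10.5. For NK cells they were 0.193 to 6.06, 0.0338 to 2.31 and 1.45 to 2.51. The pan-leukocyte gene Ptprc (CD45) averaged 1.35 FPKM in LIPUS, 0.447 FPKM in Model and 1.75 FPKM in Control. It was higher in LIPUS than in Model (1.37, limma adjusted p = 0.0254; scaled 1.98, adjusted p = 0.00299) and lower in Model than in Control (-1.78, limma adjusted p = 0.000344; scaled -1.06, adjusted p = 0.00469). Of the 8 tested genes of its pan-leukocyte list, 3 rose and 0 fell in LIPUS against Model (scaled 2 and 0). In Model against Control 0 rose and 2 fell (scaled 1 and 1, beside 15.3% and 20.2% of all genes). In LIPUS against Control 0 rose and 1 fell (scaled 6 and 0, beside 11.6% and 14.3%). The scaled medians of the 8 were 1.16, 0.17 and 1.71, so the list did not share the scaled fall of Ptprc in Model. All 8 tested fibroblast genes were lower than in Control in LIPUS and in Model, as were 8 of 8 endothelial genes in LIPUS and 7 of 8 in Model, beside 74.4% of all genes in LIPUS and 43.1% in Model. Scaled, 6 fibroblast genes were lower in LIPUS and 6 in Model, and 7 endothelial genes in LIPUS and 4 in Model, beside 14.3% and 20.2% of all genes. Their scaled median changes were -2.43 in LIPUS and -3.31 in Model for fibroblast genes, and -1.97 in LIPUS and -1.46 in Model for endothelial genes. Erythrocyte markers summed to 133 to 713 FPKM in LIPUS, 94.2 to 932 FPKM in Model and 311 to 659 FPKM in Control (scaled 188 to 2304, 81.0 to 956 and 186 to 382). The part of these cells in the marker results was not tested.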

How the data were processed

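RNA-seq of rat prostate was used from 15 libraries, 5 each of LIPUS, Model and Control, grouped by sample title. The authors deposited FPKM per gene, and no read counts were used as deposited. TRIzol was used for RNA and the VAHTS Universal V5 RNA-seq kit for libraries, per the labels' protocols. Per the submitters' processing notes fastp, HISAT2, HTSeq, SAMtools, R 3.2.0 and DESeq2 were used with build rn6, with no role or order stated. The strand setting is not given in the sources used here, so overlapping antisense reads cannot be told apart.

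Reads were recovered from the deposited FPKM by finding a length for each gene and a total for each library that make all values whole numbers. All 22436 genes were whole within 0.001 reads, of which 1802 had a value in 1 library only and give no check. On simulated data every read count was returned for 99.12% of 20235 genes. These reads gave the depths, the library make-up and an alternative fit by limma's voom. No library was a copy of another within a group (lowest chi-square per degree of freedom 75.6).

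Tests covered the 12490 genes that exceeded 0.5 FPKM in 5 or more of 15 libraries, on log2(FPKM + 0.1), which understates changes of low genes. limma 3.58.1 in R 4.3.3 fitted 1 mean per group over all 15 libraries with an intensity trend, and p-values were adjusted by Benjamini-Hochberg over all tested genes and called under 0.05. The same fit was run on FPKM divided by median-of-ratios factors from 10313 genes above 0 in every library, and on log2 values minus that of Csf1r. The markers, the 7 pathway lists and the 13 cell type lists were chosen with earlier results of these data known. Named list genes passed in the same direction on both scales, at most 4 a list, smallest scaled p first. Likeness was the root mean square distance of centred scaled log2 values, over tested genes averaging 1 FPKM or more. Replicate numbers shared by the groups did not pair the samples: the correlations of deviations ranged from -0.42 to 0.252. Alternatives were other scalings, pseudocounts, filters, sample sets, array weights, voom, a replicate block and leaving out each library. Where 1 library is left out, the remaining ones are assumed to vary alike.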

Additional observations from a re-analysis of the deposited data

Results flagged for a closer look

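Of 30 sets of 5 libraries (10 markers in 3 groups), 3 had a library far from the rest by Dixon's ratio, whose critical value for 5 samples is 0.71, and chance gives about 1 in 20. Gpnmb in Model 7 was at 111 FPKM, with the next Model library at 3.46 FPKM (ratio 0.972). Cd68 in Model 7 was at 12.3 FPKM, with the next at 2.78 FPKM (ratio 0.902). Fcer1g in Control 8 was at 10.6 FPKM, with the next Control library at 6.77 FPKM (ratio 0.713), just past the critical value. Gpnmb in LIPUS 6 and LIPUS 9 was not marked, because a pair of high values hides itself from this ratio.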

How the results depend on the processing

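For LIPUS against Model, the 3 markers called as deposited became 5 under quantile normalization and 0 with only the groups compared or with a replicate block, and 0 to 5 with 1 library left out. The 4 called on scaled values became 1 with the replicate block and 1 to 8 with 1 library left out. Over all genes, the 1820 calls became 527 with median-of-ratios scaling, 323 scaled to nuclear reads, 479 by quantile normalization, 812 without a filter, 3 with only the groups compared, 3 with the replicate block, 3637 with array weights, 3138 without Model 7, LIPUS 6 and LIPUS 9 (chosen after seeing the data), and 8 to 4576 with 1 library left out. On scaled values the 527 calls became 128 with the replicate block, 4248 without those 3 libraries and 115 to 4001 with 1 library left out. The replicate block moved no other count of marker calls by more than 1.5 times, and the samples shared only a number. For Model against Control the 5750 calls became 3379 under the stricter filter and 8953 with array weights, and the 4 scaled marker calls 2 to 4 with 1 library left out. For LIPUS against Control the 9415 calls became 3230, 2884 and 3264 under the median-of-ratios, nuclear and quantile scalings, and the 5 markers became 8 under quantile normalization. limma's voom on recovered reads called 1880, 5997 and 9420 genes and 3, 4 and 5 markers.

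Relative to Csf1r, the 3 markers of LIPUS against Model became 1 with a pseudocount of 1, 0 with only the groups compared, 0 relative to Cd68, 0 without the 3 libraries and 0 to 3 with 1 left out. The 6 of Model against Control, all higher, became 1 relative to Cd68, which was lower. The 2 of LIPUS against Control, both higher, became 1 with a pseudocount of 0.01, 4 with a pseudocount of 1 and 4 with only the groups compared. They became 1 without the 3 libraries and 1 to 4 with 1 left out. Relative to Cd68 there were 5 calls, of which 1 was higher and 4 were lower.

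Log2 changes that turned sign were these, and the cause was not tested. In Model against Control, Adgre1 went to 0.20, 0.0047 and 0.65, and Fcer1g to 0.44, 0.24 and 0.56, under the median-of-ratios, nuclear and quantile scalings, and Cd163 to 0.15 under the quantile one. Cd68 went to -0.19 with array weights, -0.32 without the 3 libraries and -0.32 to 0.37 with 1 left out. Gpnmb went to -0.28 without the 3 libraries and spanned -0.28 to 1.74 with 1 left out, and scaled Adgre1 -0.013 to 0.42. In LIPUS against Control, under those 3 scalings, Csf1r went to 0.83, 0.76 and 0.99, Mrc1 to 1.08, 1.01 and 1.33, and Cd163 to 0.87, 0.81 and 1.29. Mrc1 and Cd163 then passed under the quantile one (limma adjusted p = 0.0131 and 0.0226). Scaled Cd14 spanned -0.39 to 0.010 with 1 left out. Aif1 went to -0.018 in LIPUS against Model with array weights.

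Relative to Csf1r in LIPUS against Model, Cd68 went to 0.086 and Fcer1g to 0.26 with a pseudocount of 1, Fcer1g to 0.10 relative to Cd68, and with 1 library left out Cd68 spanned -0.80 to 0.024 and Fcer1g -0.62 to 0.14. In Model against Control Cd14 went to -0.29 with a pseudocount of 1, and with Cd68 in place of Csf1r the changes of Cd14, Mrc1, Cd163, Adgre1 and Fcer1g went to -2.12, -1.58, -1.42, -0.69 and -0.48. In LIPUS against Control, with Cd68 in place of Csf1r, the changes of Mrc1, Cd163, Aif1, Adgre1, Tyrobp and Fcer1g went to -1.90, -2.03, -0.55, -1.42, -0.96 and -0.38 in that order, and Cd163 relative to Csf1r spanned -0.093 to 0.32 with 1 left out. Depth limited the low values most: Csf1r in Model 9 rested on 14 reads and Gpnmb there on 24.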
